A study of Mus musculus with 24 samples.

Results

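The genes described here form the integrated stress response and the supply of amino acids and charged transfer RNAs. They are 35 genes picked by their gene name in the scanner files, out of 37008 distinct names on the array, and 64 probes measured them. RNA of liver and bone marrow was taken from male Erfe-/- mice at 0, 24 or 48 h after phlebotomy, which was done by retro-orbital puncture, and the mice at 0 h are labelled as controls. There were 4 samples of each tissue at each time, so 6 groups of 4 samples were measured on 24 single-colour Agilent arrays, 1 array per sample. The design gives 4 mice per time, so both tissues may come from the same mice, but the labels do not tie a liver sample to a marrow sample, and the fit of both tissues treats them as separate. Every mouse, controls included, lacked Erfe, the gene of erythroferrone, a hormone that erythroblasts release after blood loss and that lowers hepcidin. No comparison here therefore sets an Erfe-/- mouse against one with the gene. Strain and age were not given in the sources used here.

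The integrated stress response begins when 1 of several kinases, among them the heme-regulated kinase encoded by Eif2ak1, phosphorylates the translation factor eIF2. Most protein synthesis then slows, while the messenger RNA of the transcription factor ATF4 is translated better. ATF4 raises genes that make, import and attach amino acids, together with feedback genes such as Trib3 and Ppp1r15a. In erythroid precursors the heme-regulated kinase is known for matching globin synthesis to the supply of heme.

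ATF4 and its partners bind a composite element, the C/EBP-ATF response element, whose core is searched here as TGATGNAA on both strands. The promoter windows of RefSeq (GRCm38.p6, 250 bases before to 50 bases after each annotated start) held 31 of the 35 members, and Cth, Slc7a5, Wars and Nars had no window. The core occurred in 11 of these 31 genes (35.5%), against 4.51% of all 27025 genes with a window. The members were listed partly as genes of the ATF4 pathway, so their higher share is no independent result. The 11 are Atf3, Nupr1, Trib3, Chac1, Herpud1, Fgf21, Asns, Pycr1, Slc7a11, Aars and Gars. The cyclic AMP response element TGACGTCA, the site of a wider group of ATF family dimers, occurred in 1 of the 31, Ppp1r15a, and in 2.03% of all genes. These are matches of letters, not measured binding. The stretches below are those of members that hold the core and were called in marrow or differed between the tissues. Slc7a11 among them was called downward. Mthfd2 and Shmt2, called upward in marrow at both times, hold no match in their windows and are not shown. Each gives the 120 bases before the start on the gene's strand, with the core in capitals. Asns lies at chr6:7693210-7693329 on the minus strand, Aars at chr8:111033722-111033841 on the plus strand, Gars at chr6:55037881-55038000 on the plus strand and Slc7a11 at chr3:50443614-50443733 on the minus strand. For Trib3, on the minus strand of chromosome 2, only the match with its flanks is shown, 15 to 22 bases after the start.
Asns: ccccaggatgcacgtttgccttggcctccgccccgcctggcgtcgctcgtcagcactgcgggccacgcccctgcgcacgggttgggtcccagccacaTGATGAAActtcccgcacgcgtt
Aars: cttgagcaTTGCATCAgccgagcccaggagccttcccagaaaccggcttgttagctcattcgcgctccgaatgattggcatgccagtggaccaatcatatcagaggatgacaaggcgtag
Gars: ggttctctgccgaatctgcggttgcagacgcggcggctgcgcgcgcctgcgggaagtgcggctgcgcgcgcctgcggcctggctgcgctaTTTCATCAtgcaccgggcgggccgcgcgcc
Slc7a11: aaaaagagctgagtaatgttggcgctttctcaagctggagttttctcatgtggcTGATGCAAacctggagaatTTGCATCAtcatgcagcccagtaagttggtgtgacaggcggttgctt
Trib3: gctcaggtTTACATCAgccgggcg

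Matches lay from 193 bases before the start in Chac1 to 15 bases after it in Trib3. Slc7a11 held 2 copies on opposite strands, starting at -66 and -47, and Aars held 1 at -112 and 1 at 10. Among the members called in marrow below, 4 of the 10 with a window held the core, as did 7 of the 21 others. For the other 20 members with a window the result says only that these letters are not in this window.

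**Figure D1:**
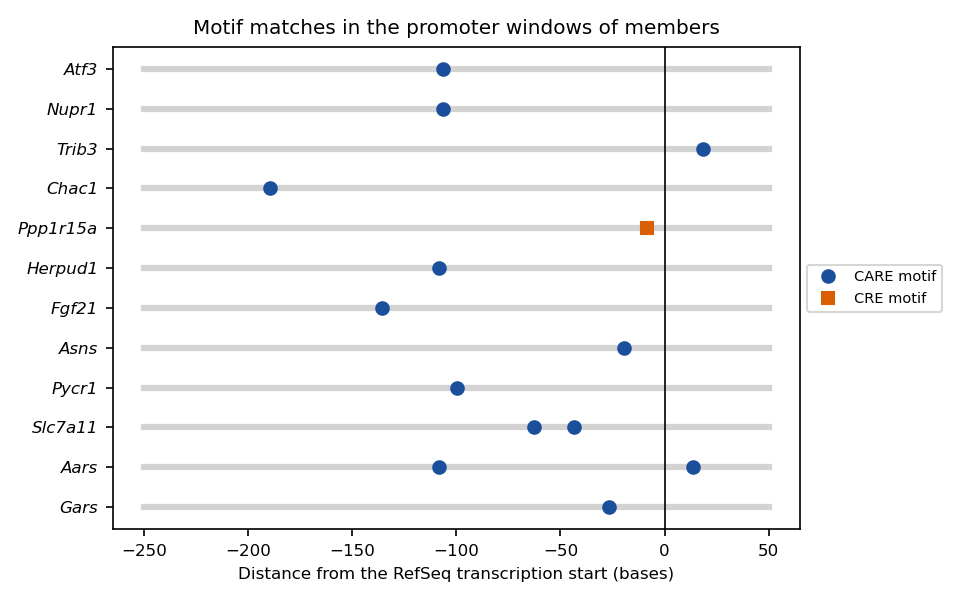
Positions of motif matches in the promoter windows of the 12 members that hold one, in bases from the RefSeq transcription start (x axis). Grey bars are the windows, circles the C/EBP-ATF response element core and the square the cyclic AMP response element. Slc7a11 and Aars hold 2 matches each.

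A level below is the log2 of the processed spot intensity minus the 75th percentile of its array, so that 0 stands for that percentile, and a change is the difference between mean levels of 4 arrays, with its standard error (SE). A gene was tested in a tissue if all 4 arrays of any time had a probe of it well above background, and its brightest such probe was used. A gene was called where the limma p-value, adjusted by Benjamini-Hochberg over all genes tested in the tissue, was under 0.05. The 75th percentile lay between 361.2 and 473.1 intensity units in liver and between 715 and 954.7 in marrow. The Erfe probes lay well above background on 1 and 0 of the 24 arrays; whether they lie in the deleted part was not analysed here. All 10 hepatocyte markers were measured in liver and all 10 erythroid markers in marrow. The marrow array of replicate 2 at 24 h stood apart, because its summed hepatocyte marker level was 22.6% of the liver mean, against 0.0238% to 0.0759% on the other marrow arrays. Marrow results at 24 h are therefore also given without it where a call, a sign or the size of a change by over 1.5 times depends on it. The arrays are of whole tissue, so fewer cells of a type and less RNA per cell cannot be told apart.

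In marrow, stress response and amino acid genes were called mostly upward after phlebotomy. Of 33 members tested, 6 were called at 24 h (18.2%), against 1.01% of all 21399 genes. The members were chosen with earlier results of these data known. Shares of members, here and below, therefore describe the list and do not test it. The feedback regulator Trib3, the mitochondrial one-carbon enzymes Mthfd2 and Shmt2, the asparagine synthetase Asns and the alanyl-tRNA synthetase Aars rose, and Bcat1, an enzyme of branched-chain amino acid breakdown, fell. Of the 6, 5 were called upward (0.551% of all genes were). At 48 h 11 members were called (33.3%), against 1.23% of all genes, 9 of them upward, where upward calls made up 1.06% of all genes. The 6 genes called at 24 h were called again at 48 h with the same sign, although both times were set against the same 0 h arrays. The 5 added at 48 h were the transcription factor Ddit3, the synthetases Sars, Nars and Mars and, downward, the cystine transporter Slc7a11. The median change of the members was 0.20 at 24 h and 0.39 at 48 h, beside -0.02 and 0.00 over all genes tested. Fgf21 and Cth were not tested in marrow. The Fgf21 probe was not well above background on any marrow array, and the Cth probe only on the array with hepatocyte transcripts.

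The arrays of the bled and unbled mice did not overlap for 14 members at 24 h (42.4%), 13 of them higher, against 8.27% of all genes. At 48 h this held for 20 members (60.6%), 18 of them higher, against 12.7%. The number called at 24 h was 3 without any 1 of marrow 0 h replicate 2, 24 h replicate 1 and 24 h replicate 2. Without the last, which held hepatocyte transcripts, Trib3, Mthfd2 and Shmt2 were called, and Asns (0.92, adjusted p = 0.0534), Aars (0.53, adjusted p = 0.0555) and Bcat1 (-0.99, adjusted p = 0.0754) were not. At 48 h it was 6 or 7 without any 1 of the 4 arrays at 0 h, without replicate 2, 3 or 4 at 48 h or without replicate 4 at 24 h. Each of the 3 slides held arrays of every marrow time, and with the slide as a block 5 members were called at 24 h and 5 at 48 h. Within the slides the change of Trib3 was 3.36, 3.28 and 2.25 at 24 h and 2.30, 3.19 and 2.72 at 48 h, and that of Ddit3 at 48 h was 0.46, 0.65 and 0.61.

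**Figure D2:**
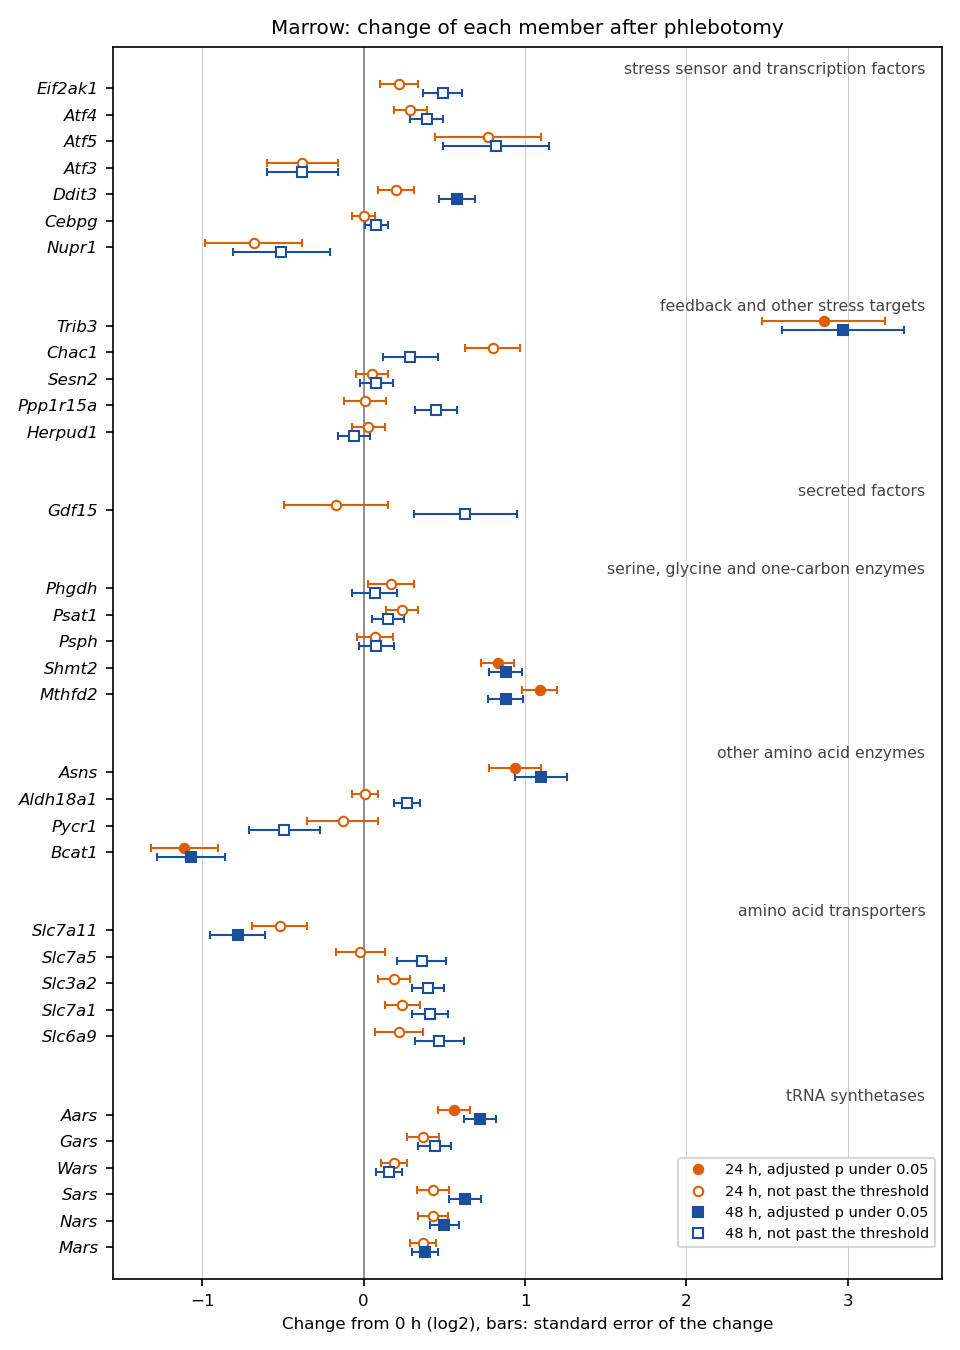
Change from 0 h in marrow (x axis, log2) of the 33 members tested, grouped by role, at 24 h (circles) and 48 h (squares), with the SE of the change as bars. Filled symbols are past the threshold. Trib3 lies near 3 at both times, and Bcat1 near -1.

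Trib3, a pseudokinase that restrains ATF4 signalling, had the largest change of the members tested in marrow at both times. Its probe lies at chr2:152163161-152163220 of mm9, the build in the file headers. Trib3 stood at -2.03, -2.36, -1.71 and -1.92 on the arrays at 0 h, at 1.16, 1.57, 0.02 and 0.64 at 24 h and at 0.10, 1.87, 1.09 and 0.79 at 48 h. Every array of a bled mouse lay above every array at 0 h, and those at 24 and 48 h overlapped. The change was 2.85 (SE 0.38, n = 4 per time, adjusted p = 0.00486 by limma) at 24 h and 2.97 (SE 0.38, adjusted p = 0.00357) at 48 h, or 7.23-fold and 7.83-fold. Without replicate 2 at 24 h, which held hepatocyte transcripts, the 24 h change was 2.61 (adjusted p = 0.0136, and 0.00307 to 0.026 over the alternatives). Trib3 was called at both times under all 20 alternatives tried.

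The other feedback and stress targets stayed under the threshold in marrow. Chac1, which degrades glutathione, stood at 0.00, -0.31, -0.35 and -0.28 at 0 h and at 0.93, 0.59, 0.51 and 0.21 at 24 h, with no overlap (change 0.80, SE 0.17, adjusted p = 0.0541). At 48 h its change was 0.29 (SE 0.17). Ppp1r15a, the stress-induced partner of the eIF2 phosphatase, changed by 0.01 at 24 h (-0.01 without replicate 2) and by 0.45 at 48 h (SE 0.13, adjusted p = 0.13), where its arrays lay above all those at 0 h. Sesn2, an inhibitor of mTORC1 under amino acid shortage, and Herpud1, a protein of endoplasmic reticulum quality control, had changes between -0.06 and 0.08 at both times. The 24 h change of Herpud1 was 0.03, and 0.01 without replicate 2.

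Among the transcription factors, Ddit3 (CHOP) was called at 48 h. Ddit3 stood at -0.27, -0.36, -0.37 and -0.27 at 0 h, at 0.04, -0.21, -0.22 and -0.08 at 24 h and at 0.15, 0.54, 0.02 and 0.34 at 48 h. The arrays at each later time lay above those at 0 h. Its change was 0.20 (SE 0.11, adjusted p = 0.486) at 24 h and 0.58 (SE 0.11, adjusted p = 0.0332) at 48 h. A second Ddit3 probe changed by 0.01 and 0.30. The call ended under 15 of 20 alternatives, with adjusted p up to 0.411, among them leaving out any 1 array at 0 h, replicate 1, 2 or 4 at 48 h, or replicate 4 at 24 h.

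Atf4 and Atf5, which drive the response, did not pass the threshold. Atf4 stood between 5.91 and 6.16 at 0 h, 6.17 and 6.52 at 24 h and 6.34 and 6.69 at 48 h. These ranges did not overlap with 0 h, and the change at 48 h was 0.39 (SE 0.10, adjusted p = 0.0963). Atf5 changed by 0.77 at 24 h and 0.82 at 48 h (SE 0.33 at both, adjusted p = 0.361 and 0.247). Its 24 h replicate 2 stood at 4.54 while the others stood between 2.70 and 3.10, and Atf5 was 28.7-fold higher in liver than in marrow at 0 h. Without that array the 24 h change was 0.36 (SE 0.17, adjusted p = 0.429), and the smaller spread gave an adjusted p of 0.033 for the 48 h change, past the threshold.

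Eif2ak1, the heme-regulated kinase, stood between 1.37 and 1.86 at 0 h and between 1.92 and 2.10 at 48 h, with a change of 0.49 (SE 0.12, adjusted p = 0.079). Its 3 other probes changed by 0.61, 0.36 and 0.43 at 48 h. Atf3, a stress-induced factor, had changes of -0.38 at both times (SE 0.22) and Nupr1, another stress-induced nuclear protein, of -0.68 and -0.51 (SE 0.30). Without replicate 2 at 24 h, the array with hepatocyte transcripts, the 24 h change was -0.19 for Atf3 (SE 0.19) and -0.44 for Nupr1 (SE 0.27). A second Nupr1 probe gave 0.15 and -0.05. Cebpg, a dimer partner of ATF4, changed by 0.00 and 0.08 (SE 0.07), and by 0.02 at 24 h without that replicate. None of these 4 genes was called.

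The serine and one-carbon genes split in marrow. Mthfd2 and Shmt2, which carry one-carbon units in mitochondria, rose at both times, and the 3 enzymes that make serine did not pass the threshold. Mthfd2 stood at 0.85, 0.73, 0.76 and 0.71 at 0 h, at 1.98, 1.85, 1.69 and 1.90 at 24 h and at 1.45, 1.93, 1.58 and 1.62 at 48 h. The bled arrays lay clear of 0 h, and the change was 1.09 (SE 0.11, adjusted p = 0.000666) at 24 h and 0.88 (SE 0.11, adjusted p = 0.00257) at 48 h. This call held under all 20 alternatives at both times, and a second Mthfd2 probe changed by 0.98 and 0.89.

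Shmt2, which splits serine into glycine and a one-carbon unit, stood at 1.91, 1.70, 1.89 and 1.85 at 0 h, at 2.68, 2.67, 2.53 and 2.79 at 24 h and at 2.45, 2.90, 2.78 and 2.75 at 48 h. No bled array fell into the range of 0 h. The change was 0.83 (SE 0.10, adjusted p = 0.00338) at 24 h and 0.88 (SE 0.10, adjusted p = 0.00223) at 48 h. A second Shmt2 probe changed by 0.50 and 0.46, and with the mean of both probes the adjusted p was 0.123 and 0.0972. Phgdh, Psat1 and Psph, the enzymes of serine synthesis in their order, changed by 0.17, 0.24 and 0.07 at 24 h and by 0.07, 0.15 and 0.08 at 48 h. Without replicate 2 at 24 h, the 24 h change of Psph was 0.14. Psat1 at 24 h had the smallest adjusted p of the 3, 0.354.

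Asns, which makes asparagine and is a standard readout of ATF4, rose in marrow. Asns stood at 3.51, 3.40, 3.83 and 3.81 at 0 h, at 4.67, 4.64, 4.32 and 4.70 at 24 h and at 4.52, 5.16, 4.55 and 4.72 at 48 h. The arrays after phlebotomy were all above those at 0 h. Its change was 0.94 (SE 0.16, adjusted p = 0.0183) at 24 h and 1.10 (SE 0.16, adjusted p = 0.00736) at 48 h, and a second probe changed by 1.03 and 1.19. The 48 h call held under all 20 alternatives. The 24 h call ended without 0 h replicate 1 or 2 or 24 h replicate 1, 2 or 4 (adjusted p up to 0.0658), without the filter on dim probes (0.0628) and with the replicate number as a block (0.0606).

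Bcat1, the cytosolic branched-chain aminotransferase, fell. Bcat1 stood at -1.53, -0.96, -1.14 and -1.09 at 0 h, at -2.01, -2.66, -2.56 and -1.92 at 24 h and at -1.80, -2.48, -2.48 and -2.23 at 48 h. All bled arrays lay below those at 0 h. The change was -1.11 (SE 0.21, adjusted p = 0.0293) at 24 h and -1.07 (SE 0.21, adjusted p = 0.0357) at 48 h, and 2 further probes changed by -0.65 and -0.73 at 24 h. Leaving out an array ended the 24 h call for 7 of 12 arrays (0 h replicates 2, 3 and 4, 24 h replicates 1, 2 and 3 and 48 h replicate 4) and the 48 h call for 6 (replicates 2, 3 and 4 at 0 h and at 48 h), and the adjusted p reached 0.216 and 0.206 over all alternatives. Aldh18a1 and Pycr1, enzymes of proline synthesis, did not pass. Their changes were 0.01 and -0.13 at 24 h and 0.27 and -0.49 at 48 h, and without replicate 2 at 24 h they were 0.04 and 0.07 at 24 h.

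Of the amino acid transporters, Slc7a11 was called, and downward. Slc7a11 stood at -3.45, -3.63, -3.45 and -3.37 at 0 h, at -4.05, -4.45, -3.50 and -3.97 at 24 h and at -4.44, -4.25, -4.08 and -4.24 at 48 h. The 48 h arrays were all below 0 h, and 1 array at 24 h fell within its range. The change was -0.52 (SE 0.17, adjusted p = 0.202) at 24 h and -0.78 (SE 0.17, adjusted p = 0.0485) at 48 h, and the 48 h call ended under 17 of 20 alternatives, all with the same sign (adjusted p up to 0.162). Leaving out any 1 of the 8 arrays at 0 or 48 h ended it, as did leaving out replicate 1 or 4 at 24 h.

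Slc3a2, the heavy chain that pairs with Slc7a11 and Slc7a5, had a change of 0.40 at 48 h (SE 0.10, adjusted p = 0.081), with no overlap with 0 h. Another probe of Slc3a2 changed by -0.14 at 24 h and 0.17 at 48 h. Slc7a1, a carrier of arginine and lysine, changed by 0.41 at 48 h (SE 0.11, adjusted p = 0.109), again without overlap. The light chain Slc7a5 and the glycine transporter Slc6a9, which serves heme synthesis in erythroblasts, changed by 0.36 and 0.47 at 48 h (adjusted p = 0.283 and 0.168). At 24 h the changes of these 4 transporters ran from -0.02 to 0.24. The lowest, that of Slc7a5, was -0.01 without replicate 2 at 24 h.

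All 6 aminoacyl-tRNA synthetases, which attach amino acids to their transfer RNAs, had positive changes in marrow at both times with their brightest probe. At 24 h 1 of 6 was called and at 48 h 4 of 6. Aars, the alanine enzyme, stood at 2.73, 2.76, 2.74 and 2.92 at 0 h, at 3.35, 3.43, 3.23 and 3.39 at 24 h and at 3.37, 3.75, 3.38 and 3.51 at 48 h. No array overlapped with 0 h. The change was 0.56 (SE 0.10, adjusted p = 0.0191) at 24 h and 0.72 (SE 0.10, adjusted p = 0.00479) at 48 h. The 48 h call held under all 20 alternatives. The 24 h call ended without 0 h replicate 1, 2 or 3 or 24 h replicate 1, 2 or 4 (adjusted p up to 0.0692), with the slide as a block (0.0559), with the mean of kept probes (0.0651) and without the filter on dim probes (0.0768).

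Sars, Nars and Mars, the serine, asparagine and methionine enzymes, were called at 48 h. Sars stood at 3.19, 3.02, 3.12 and 3.16 at 0 h, at 3.64, 3.53, 3.38 and 3.65 at 24 h and at 3.61, 3.99, 3.71 and 3.68 at 48 h. Its change was 0.43 (SE 0.10, adjusted p = 0.0718) and 0.63 (SE 0.10, adjusted p = 0.0113). The 48 h call held without each array in turn. It ended with the slide as a block (adjusted p = 0.051), with the replicate block (0.0608) and when all kept probes were averaged (0.575). A second Sars probe changed by -0.64 at 24 h and 0.17 at 48 h.

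Nars stood at 1.91, 1.76, 1.91 and 1.75 at 0 h, at 2.38, 2.20, 2.17 and 2.31 at 24 h and at 2.10, 2.50, 2.38 and 2.35 at 48 h. Mars stood at 0.97, 0.98, 0.92 and 1.08 at 0 h, at 1.36, 1.25, 1.37 and 1.44 at 24 h and at 1.22, 1.49, 1.33 and 1.45 at 48 h. For both genes every bled array lay above 0 h. Nars changed by 0.43 at 24 h (SE 0.09, adjusted p = 0.0605) and 0.50 at 48 h (SE 0.09, adjusted p = 0.0327), and Mars by 0.37 (SE 0.08, adjusted p = 0.0574) and 0.38 (SE 0.08, adjusted p = 0.0461). Both 48 h calls lay close to the threshold. Leaving out any 1 array at 0 h, replicate 2, 3 or 4 at 48 h or replicate 4 at 24 h ended either call, with adjusted p up to 0.115 for Nars and 0.16 for Mars, and replicates 1 and 3 at 24 h also ended that of Mars. Both calls also ended with the slide as a block (adjusted p = 0.106 for Nars and 0.108 for Mars), with the replicate block (0.113 and 0.109), with only the groups compared (0.0671 and 0.0828) and without the filter on dim probes (0.123 and 0.173), and that of Mars with the mean of kept probes (0.0527).

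Gars, the glycine enzyme, stood between 4.48 and 4.75 at 0 h, 4.92 and 5.13 at 24 h and 4.97 and 5.29 at 48 h, without overlap, and missed the threshold at 48 h (change 0.44, SE 0.10, adjusted p = 0.0552). Wars, the tryptophan enzyme, changed by 0.19 and 0.16 (adjusted p = 0.344 and 0.337). The secreted factor Gdf15 changed by -0.17 at 24 h and by 0.63 at 48 h in marrow (SE 0.32 at both), where its arrays lay above those at 0 h (adjusted p = 0.361). Without replicate 2 at 24 h, which held hepatocyte transcripts, the 24 h change was -0.48 (SE 0.26, adjusted p = 0.531).

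**Figure D3:**
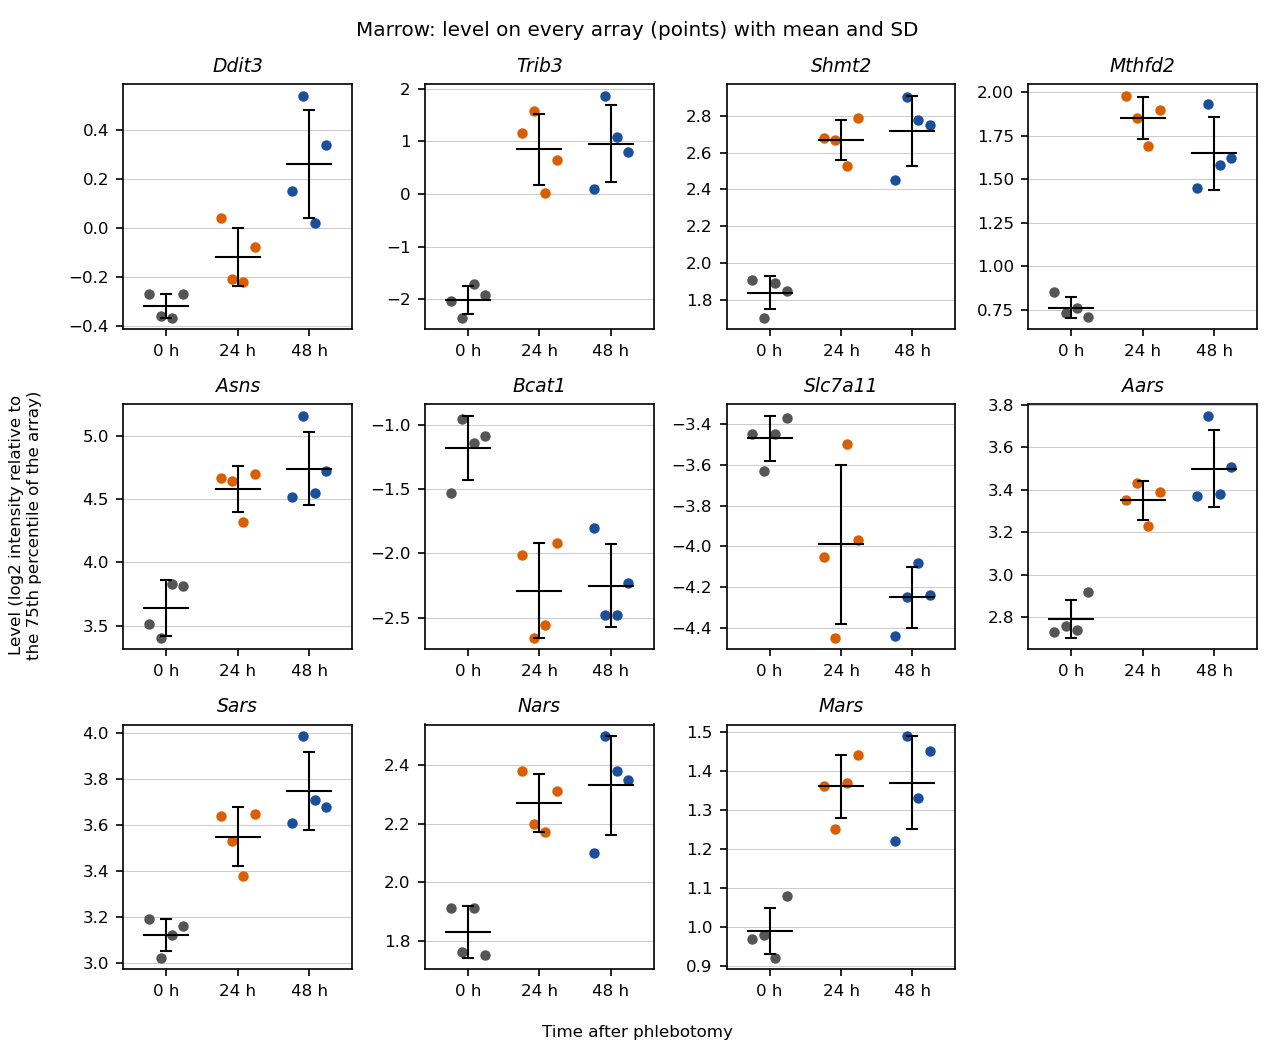
Level (y axis, log2, array's 75th percentile set to 0) of the 11 members called in marrow, on each of the 4 arrays at 0, 24 and 48 h (x axis), with mean and SD as black bars. Scales differ between panels. Each array at 48 h lies outside the range at 0 h.

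Between 48 and 24 h no member was called in marrow (0 of 33, limma), and 0.00467% of all genes, 1 gene, was called. The members with the smallest unadjusted p were Ddit3 (0.38 higher at 48 h, SE 0.11), Aldh18a1 (0.25, SE 0.08), Ppp1r15a (0.44, SE 0.13) and Chac1 (0.50 lower, SE 0.17). Their adjusted p ran from 0.563 to 0.573.

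Related genes outside the list were read the same way, and these lists too were chosen with earlier results of these data known. Of 14 other cytosolic tRNA synthetases, 3 rose at 24 h (Tars by 0.61, Cars by 0.46 and Yars by 0.40) and 5 at 48 h, when Hars and Farsb joined them. Of 13 other amino acid enzymes and transporters tested, 0 were called at 24 h and 2 at 48 h, the one-carbon enzymes Mthfd1 (0.56) and Mthfd1l (0.35). Of 10 genes for eIF2, its other kinases, its phosphatase and its exchange factor, 0 were called at 24 h and 2 at 48 h, the exchange factor subunits Eif2b3 (0.56) and Eif2b1 (0.43). Of 6 mitochondrial stress genes, the chaperone Hspd1 was called at both times (0.47 and 0.41). Of 8 other ATF4 targets and partners and of 11 genes of the ATF6 and XBP1 arm of the endoplasmic reticulum stress response, 0 were called at either time, and the median of the ATF6 and XBP1 genes was 0.02 at 24 h and -0.13 at 48 h. At an unadjusted p under 0.05 these 2 lists held 3 and 1 genes at 24 h and 1 and 0 at 48 h. The share of all marrow genes at that cut is not given here, so these counts are not read as a result. Without replicate 2 at 24 h, the synthetases called at 24 h were Tars (0.56) and Yars (0.44), and of the mitochondrial stress genes Hspa9 (0.39) was called at 48 h beside Hspd1. The 24 h median of the ATF6 and XBP1 genes was then 0.01.

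The levels of marrow cell type markers are given beside these times, and their part in the results was not tested. The summed level of 10 erythroid markers ran from 276 to 375 at 0 h, 259 to 353 at 24 h and 342 to 461 at 48 h, in units of the 75th percentile, and 1 of 10, Rhag, was called, at 48 h (0.74). That of 10 B lineage markers ran from 76.4 to 126, from 54.5 to 84.8 and from 54.3 to 107, with 0 called. That of 6 plasma cell markers ran from 13.8 to 24, from 10.3 to 12.6 and from 8.2 to 13.3, with 0 of 5 tested called. That of 8 proliferation genes ran from 189 to 211, from 206 to 235 and from 203 to 275, with 0 called. Neutrophil markers ran from 1990 to 2850 at 0 h, 1950 to 2510 at 24 h and 1960 to 2630 at 48 h, and those of monocytes and macrophages from 189 to 243, from 165 to 239 and from 143 to 228, with 0 called in either list.

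In liver no member was called. Of 32 members tested, 0 passed at 24 h, at 48 h or between the times by limma (0% of 19649 genes in each comparison), where 7, 1 and 2 members had an unadjusted p under 0.05 beside 2146, 1266 and 1499 of all genes. Pycr1, Bcat1 and Slc7a11 were not well above background on all 4 liver arrays of any time. The median change of the members was 0.02 at 24 h and 0.03 at 48 h, beside -0.02 over all genes at both. The liver arrays did not overlap with 0 h for 2 members at 24 h (6.25%), against 5.53% of all genes, and for 2 at 48 h (6.25%), against 4.20%. Both shares lay near the background.

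**Figure D4:**
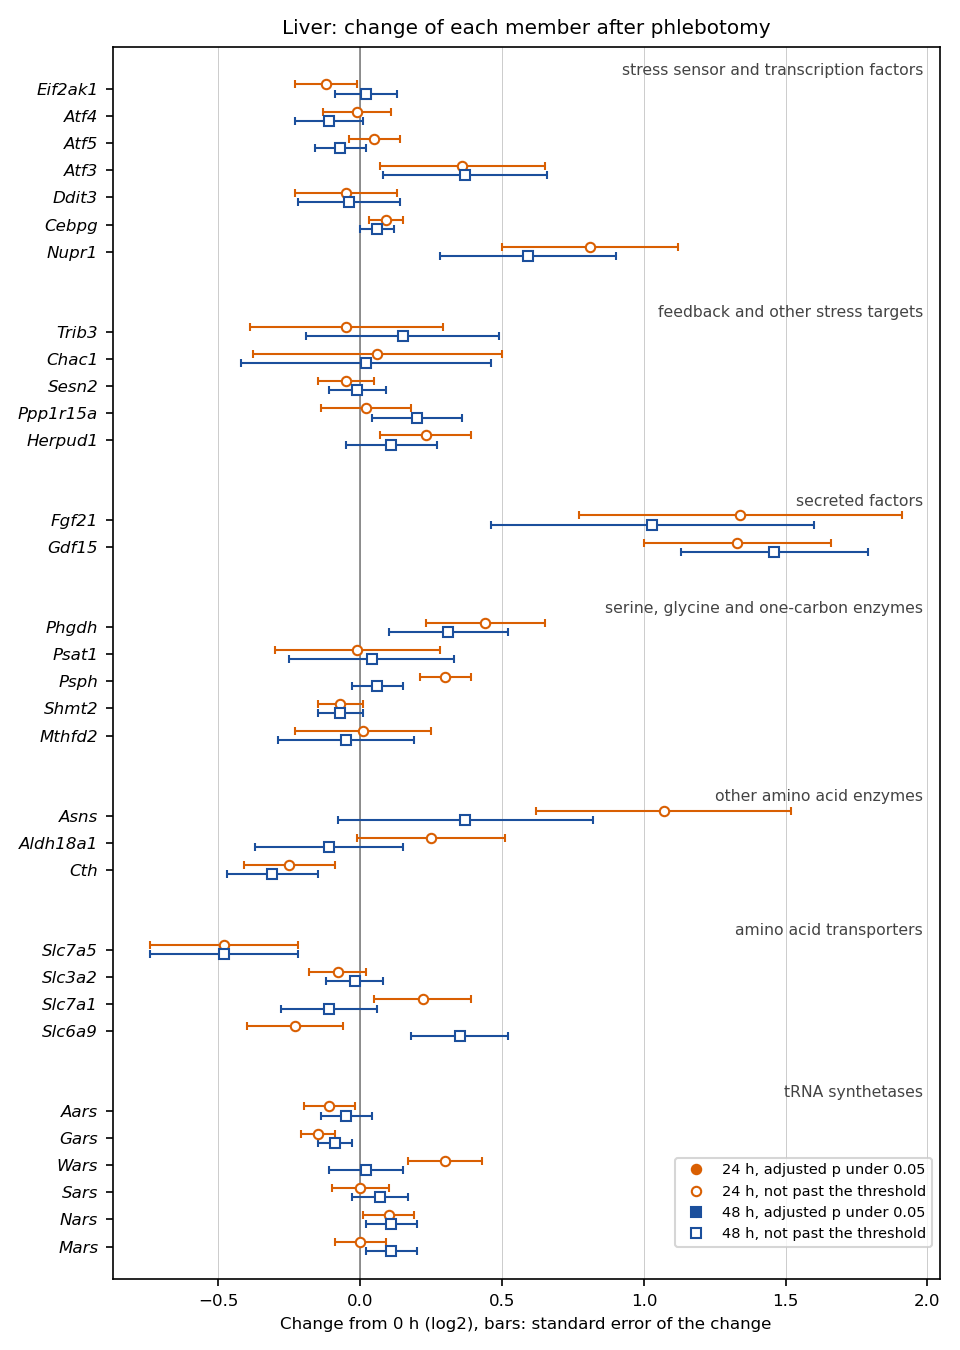
Change from 0 h in liver (x axis, log2) of the 32 members tested, grouped by role, at 24 h (circles) and 48 h (squares), with the SE of the change as bars. Open symbols throughout show that no member passed the threshold. Fgf21 and Gdf15 lie above 1 at both times.

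The largest liver changes were in the secreted factors. Gdf15, a hormone that acts on the hindbrain to lower food intake, stood at 0.15, 1.33, 0.18 and -0.30 at 0 h, at 1.64, 1.65, 1.19 and 2.21 at 24 h and at 1.68, 1.45, 2.33 and 1.75 at 48 h. Replicate 2 at 0 h was higher than replicate 3 at 24 h, and all 48 h arrays lay above 0 h. The change was 1.33 (SE 0.33, adjusted p = 0.325) at 24 h and 1.46 (SE 0.33, adjusted p = 0.502) at 48 h, with an exact two-sided permutation p of 0.0286 at 48 h, the smallest that 4 against 4 arrays allow. Fgf21, a fasting hormone of liver, changed by 1.34 and 1.03 (SE 0.57 at both), and its arrays overlapped: they ran from -4.36 to -2.29 at 0 h, from -3.35 to -1.83 at 24 h and from -3.37 to -1.19 at 48 h.

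Psph, which completes serine synthesis, stood at 0.42, 0.42, 0.45 and 0.36 at 0 h, at 0.89, 0.71, 0.63 and 0.62 at 24 h and at 0.38, 0.70, 0.41 and 0.41 at 48 h. The 24 h arrays lay above 0 h and those at 48 h did not (changes 0.30, SE 0.09, adjusted p = 0.344, and 0.06). Gars stood at 4.49, 4.60, 4.55 and 4.46 at 0 h, at 4.40, 4.30, 4.41 and 4.41 at 24 h and at 4.45, 4.39, 4.42 and 4.49 at 48 h. Its 24 h arrays lay below 0 h (change -0.15, SE 0.06, adjusted p = 0.415), opposite in sign to marrow.

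Slc6a9 stood at 3.12, 3.45, 3.21 and 3.28 at 0 h, at 2.51, 2.87, 3.36 and 3.41 at 24 h and at 3.55, 3.62, 3.73 and 3.55 at 48 h. All 48 h arrays lay above 0 h (change 0.35, SE 0.17, adjusted p = 0.801), and also above those at 24 h. Asns in liver changed by 1.07 at 24 h (SE 0.45, adjusted p = 0.432) and 0.37 at 48 h, Nupr1 by 0.81 and 0.59 (SE 0.31) and Trib3 by -0.05 and 0.15 (SE 0.34). The choice of probe moved some values: Ddit3 changed by -0.05 at 24 h with its brightest liver probe and by 0.60 with the other, and Mthfd2 by 0.01 and 0.35 in the same way.

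**Figure D5:**
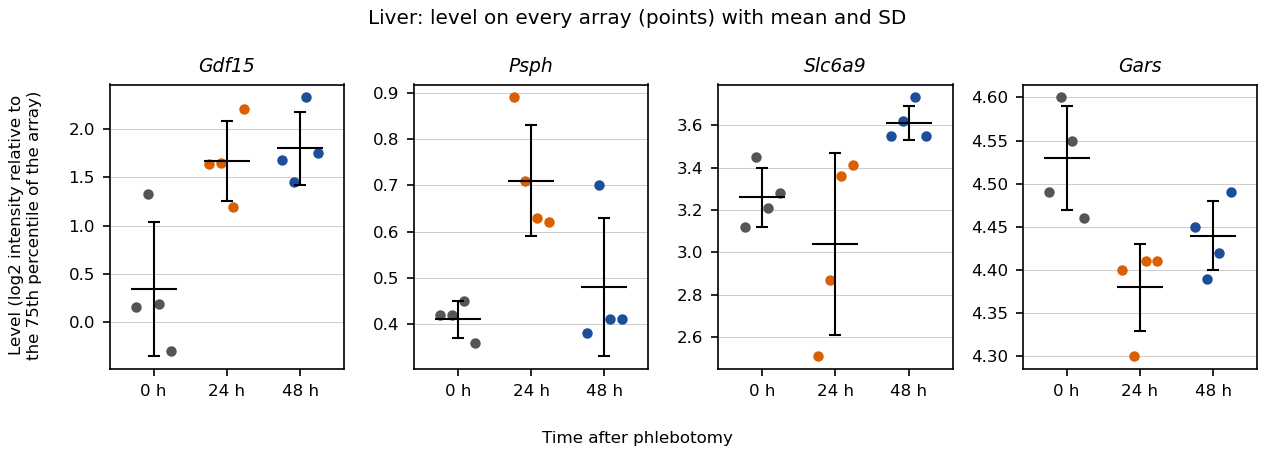
Level (y axis, log2, array's 75th percentile set to 0) in liver of the 4 members whose arrays at 24 or 48 h did not overlap with 0 h, on each of the 4 arrays at 0, 24 and 48 h (x axis), with mean and SD as black bars. Scales differ between panels. None passed the threshold across all genes.

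Other members changed little in liver. Atf4 changed by -0.01 and -0.11 (SE 0.12), Atf5 by 0.05 and -0.07 (SE 0.09), Shmt2 by -0.07 at both times (SE 0.08) and Cth, which makes cysteine, by -0.25 and -0.31 (SE 0.16). The remaining members ran from -0.48, the change of Slc7a5, to 0.44, the change of Phgdh at 24 h. Of the related lists 0 genes were called in liver. The 11 genes of the ATF6 and XBP1 arm had positive changes at 24 h with a median of 0.52, led by Creld2 (0.91) and Manf (0.74). Of them, 4 had an unadjusted p under 0.05, to be read beside the count of all liver genes at that cut given above. At 48 h that median was 0.07.

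The changes in marrow and liver were compared in a fit of all 24 arrays, in which all 35 members were tested with the probe brightest over both tissues. That probe differed from the one above for Ddit3 in marrow and for Mthfd2 and Slc3a2 in liver. Fgf21, Cth, Pycr1, Bcat1 and Slc7a11 were near background in 1 of the tissues, and none of the 5 was called. The change in marrow was larger for 4 members at 24 h (11.4%), against 0.364% of all genes in either direction, and for 4 at 48 h (11.4%), against 0.413%. Both times gave Trib3, Shmt2, Aars and Gars. For Trib3 the marrow change exceeded that in liver by 2.91 (SE 0.54, adjusted p = 0.0228) at 24 h and by 2.82 (SE 0.54, adjusted p = 0.0279) at 48 h. For Shmt2 the difference was 0.89 (SE 0.12, adjusted p = 0.00185) and 0.95 (SE 0.12, adjusted p = 0.00119), for Aars 0.67 and 0.76 (SE 0.13) and for Gars 0.52 and 0.53 (SE 0.11). The count fell to 1 or 2 at 24 h without any 1 of liver 0 h replicates 2 and 4, liver 24 h replicates 1 and 2, marrow 0 h replicates 1, 2 and 3 and marrow 24 h replicates 1 and 4, and to 2 at 48 h without any 1 of liver 0 h replicate 2, liver 48 h replicates 2, 3 and 4, marrow 0 h replicates 1 and 2 and marrow 48 h replicate 2. The difference for Shmt2 was called without each array in turn at both times and ended with the mean of kept probes (adjusted p = 0.192 and 0.25), as did that for Aars (0.23 and 0.0763). That for Gars ended at both times under quantile normalisation (0.0571 and 0.0595), without the filter (0.127 and 0.122) and with the replicate block (0.0751 and 0.0673), and at 24 h with the slide as a block (0.0579). Without the filter that for Trib3 ended at both times (0.0554 and 0.0615) and that for Aars at 24 h (0.0879). Leaving out 1 of the 24 arrays ended the difference for Trib3 with 3 arrays at 24 h and 7 at 48 h (adjusted p up to 0.0658 and 0.0764). For Gars it ended with 11 and 10 arrays (up to 0.0956 and 0.0848). For Aars it ended with 10 arrays at 24 h (up to 0.0737) and with 0 at 48 h. Replicate 2 of marrow at 24 h, the array with hepatocyte transcripts, was among the 10 for Aars.

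Mthfd2 and Asns, called within marrow, did not pass this test. Mthfd2 differed by 0.75 at 24 h (SE 0.31, adjusted p = 0.335) and Asns by -0.13 at 24 h and 0.73 at 48 h (SE 0.51). For Gdf15 and Nupr1 the marrow minus liver difference at 24 h was -1.50 (SE 0.49, adjusted p = 0.201) and -1.49 (SE 0.46, adjusted p = 0.164), and neither was called.

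Before phlebotomy the tissues differed for most members, as for most genes. Of 35 members 29 were called between marrow and liver at 0 h (82.9%), 17 higher in marrow and 12 lower, and 80.2% of all genes were. In marrow the serine enzymes Phgdh and Psat1 were 67.9-fold and 39-fold higher (adjusted p = 1.09e-16 and 1.26e-14), Slc7a1 25-fold, Nupr1 14.1-fold, Ppp1r15a 13.9-fold, Mthfd2 13.7-fold, Aldh18a1 9.16-fold and Asns 8.28-fold higher. In liver Atf5 was 28.7-fold higher, Trib3 8.22-fold, Gdf15 4.98-fold, Shmt2 4.20-fold, Herpud1 4.09-fold and Aars 3.22-fold higher. Trib3 stood at 1.03 ± 0.61 (SD, n = 4) in liver and at -2.01 ± 0.27 in marrow at 0 h, and in marrow at 24 and 48 h at 0.85 ± 0.67 and 0.96 ± 0.73.

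For members not well above background in 1 tissue only a bound was given, the mean of the bright tissue over a limit in the dim one. The limit was set per array as the weakest signal that any probe well above background gave there, or the probe's own signal where that was higher. Cth was at least 1710-fold and Fgf21 at least 3.01-fold higher in liver. Bcat1 was at least 9.99-fold, Pycr1 at least 3.07-fold and Slc7a11 at least 2.04-fold higher in marrow. Atf4, Atf3, Sesn2, Gars, Wars and Sars were not called between the tissues at 0 h. The difference for Atf4 was -0.01 (SE 0.12).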

How the data were processed

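The authors extracted spot intensity with Agilent Feature Extraction 10.10.1.1 and used limma, per the submitters' processing notes. The deposited intensity used here had been corrected for background by that software, per the file headers, which place the probes on mm9. The deposited series table, on a log2 scale with nearly equal quantiles within each tissue, served as an alternative; how it was made is not given in the sources used here. Here log2 processed intensity was scaled to the 75th percentile of each array over non-control spots, spots of a probe were averaged without outlier flags, and probes well above background on all 4 arrays of a group were kept. limma 3.58.1 (R 4.3.3) fitted the 3 times of a tissue, or all 24 arrays, with no block, at an adjusted p of 0.05. The fit was tested on simulated data for 48 h against 0 h. In each tissue 50 genes were changed by each of 0.5, 1, 1.5 and 2, with independent normal noise. The fit called 36% of true changes of 0.5 in marrow and 34% in liver, and 68% and 74% of true changes of 1. An adjusted threshold is looser where more genes change. In the measured liver no gene was called, and Gdf15, changed by 1.46 at 48 h, had an adjusted p of 0.502 by limma. The simulated liver shares thus do not describe detection in the measured liver. A gene not called may therefore have changed. The labels do not say whether the mice were bled as 1 batch, and p-values set a change against the spread between these samples only. Members and lists were chosen with earlier results of these data known; all members are named, with every array for those called or, in liver, not overlapping. Replicate numbers were not taken as pairs. Promoters came from RefSeq (GRCm38.p6). Alternatives were quantile and normexp scaling, the deposited table, no filter, mean of probes, slide or replicate blocks, only the groups compared, and each array left out.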

Additional observations from a re-analysis of the deposited data

Results flagged for a closer look

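Among the members whose arrays are given one by one, 45 groups of 4 arrays were examined for a single array far from the other 3, and 3 were found, where chance gives about 1 in 20. Asns in marrow at 24 h stood at 4.32 in replicate 3, against 4.64 to 4.70 in the others. Psph in liver at 48 h stood at 0.70 in replicate 2, against 0.38 to 0.41. Gars in liver at 24 h stood at 4.30 in replicate 2, against 4.40 to 4.41.

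A difference between the tissues in the change after phlebotomy, tested as an interaction in limma over all 24 arrays, was found for 4 members at both times. The marrow change minus the liver change was 2.91 at 24 h and 2.82 at 48 h for Trib3, 0.89 and 0.95 for Shmt2, 0.67 and 0.76 for Aars and 0.52 and 0.53 for Gars. The difference for Aars at 24 h was not called without any 1 of 10 arrays. Replicate 2 of marrow at 24 h, which held hepatocyte transcripts, was 1 of them.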

How the results depend on the processing

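In marrow the number of members called was 6 at 24 h and 11 at 48 h. Without the filter on dim probes it was 3 and 6, with the mean of all kept probes 3 and 6, and with the slide as a block 5 at 48 h. Leaving out 1 array gave 3 to 7 at 24 h and 6 to 12 at 48 h. With the replicate block it was 4 at 24 h and 5 at 48 h. Within a tissue, same-numbered arrays of different times correlated between -0.25 and 0.17 in marrow and -0.27 and 0.15 in liver. Differently numbered arrays correlated between -0.25 and 0.28 in marrow and -0.15 and 0.26 in liver. The medians were 0.05 and -0.03 in marrow and 0.03 and -0.01 in liver. Liver was not set against marrow, so these values cannot show whether a number stands for the same mouse in both tissues. The numbers were not taken as pairs. The tissue difference, 4 members at each time, became 1 at 24 h and 2 at 48 h without the filter and 2 at both with the mean of probes, and 1 to 4 and 2 to 5 when 1 array was left out. Counts in liver and between 48 and 24 h in marrow were 0 under every alternative run, and that between the tissues at 0 h was 28 to 31. The deposited table was not run for the tissues at 0 h, because each tissue was scaled apart in it. No change called within marrow or between the tissues after phlebotomy reversed its sign under these alternatives. Nor did the 4 changes in liver whose arrays did not overlap. Changes of the same members at a time when they were not called were not followed this way. Among these is Sars in marrow at 24 h, where its second probe fell. The small 24 h changes of Pycr1 and Ppp1r15a in marrow, neither called, turned sign without replicate 2 at 24 h (to 0.07 and -0.01). Normexp moved the median of all genes between the tissues at 0 h from -0.03 to -0.25, and quantile normalisation moved it to 0.07. The cause of these shifts was not tested. The number of arrays, 4 a group, limits the precision: the median SE of a change was 0.13 in marrow and 0.12 in liver. Fgf21 and Cth in marrow and Pycr1, Bcat1 and Slc7a11 in liver were not well above background.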
